A study of Mus musculus with 42 samples.

Results

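Spermatogonia are the mitotic germ cells of the testis, and in young mice they were separated here by a pair of surface proteins into Thy1+ cells, enriched for undifferentiated spermatogonia, and c-Kit+ cells, enriched for differentiating ones. The comparison concerns these populations among cells in which Chd8, a chromatin remodeler of the CHD family, had been deleted in the germline: 3 mutant Thy1+ against 3 mutant c-Kit+ RNA-seq libraries, 6 of the 12 RNA-seq libraries and of the 42 samples of the series. The members were chosen by their labels alone, and every expressed gene was compared. All mice were C57BL/6J males at 10 days postpartum (dpp). The mutants were Ddx4-Cre/Chd8F/- and the controls Ddx4-Cre/Chd8+/F, so that the Cre transgene and a floxed allele were present in both. Ddx4-Cre acts in germ cells, and somatic cells of the testis are not its target. The allele beside the floxed one was deleted in mutants and intact in controls, in somatic cells as well. Mutant and control somatic cells thus differed in their Chd8 alleles too, and the part of this in the values below was not tested. In control germ cells the Cre also acts on the floxed allele.

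The testes were treated with collagenase to remove interstitial cells, and cells that adhered to a dish were discarded. Magnetic beads against c-Kit then took the c-Kit+ cells, and beads against Thy1 took the Thy1+ cells from what flowed through. A fraction of this kind is an enrichment and not a pure population. In bulk RNA, fewer cells of a type and less RNA per cell cannot be told apart. Total counts were 32266861 to 43622645 in the mutant libraries and 32937873 to 45396233 in the controls. Nothing in the labels says which pups a library came from, so the p-values measure the spread between 3 libraries of a group, which may in part be technical.

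Undifferentiated spermatogonia include the stem cells of the lineage. They carry the receptor for GDNF, made of Gfra1 and Ret, and depend on the transcription factors Etv5, Id4 and Zbtb16 and on the RNA-binding protein Nanos2. Under retinoic acid they differentiate, switch on Kit and Stra8, and later enter meiosis, when homologous chromosomes pair and recombine. The contrast between Thy1+ and c-Kit+ cells therefore reads the early part of this path, and among mutant cells it asks which steps of it are still seen as a difference in RNA.

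Chd8 mRNA itself was not called between the mutant populations. It was measured at 298, 258 and 267 CPM (counts per 1000000 counted reads, scaled by trimmed mean of M-values, TMM, over the 12 libraries) in mutant Thy1+ and at 304, 316 and 297 CPM in mutant c-Kit+ cells, a log2 fold change (Thy1+ minus c-Kit+) of -0.11 (adjusted p = 0.322, edgeR). The control means were 270 CPM for Thy1+ and 281 CPM for c-Kit+. Recombination removes an internal part of the gene, and reads were summed over all exons, so these values do not check the deletion. The sorting antigens did separate. Thy1 was at 12.2, 17.1 and 14.6 CPM in mutant Thy1+ against 0.768, 0.828 and 1.07 CPM in mutant c-Kit+ libraries, a log2 fold change of 4.08 ± 0.22 (SE). Kit ran the other way, at 231, 432 and 286 CPM against 772, 782 and 680 CPM. Its log2 fold change was -1.19 in mutants and -1.19 in controls. Thy1+ replicate 2 had the highest Kit of its group, and the groups did not overlap.

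The populations still differed at many genes among mutant cells, more often towards Thy1+ by count. Of 17346 genes tested with edgeR's quasi-likelihood test, 2653 (15.3%) were higher in mutant Thy1+ and 872 (5.03%) in mutant c-Kit+ cells with a Benjamini-Hochberg adjusted p below 0.05 and a log2 fold change beyond 0.5 in either direction, 20.3% of the genes together. Below, a gene is called when it passed both limits. The same contrast in controls called 3594 genes (20.7%) towards Thy1+ and 1229 (7.08%) towards c-Kit+ of 17350 tested, or 27.8% together. Regardless of any test, the 3 Thy1+ libraries all lay above the 3 c-Kit+ libraries for 23.3% of the genes tested in mutants, and all below them for 26.7%. Without TMM, by library size alone, 63.3% of the mutant calls were higher in Thy1+, against 75.3% with it.

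The c-Kit+ side was the less stable one. Its 872 calls became 1788 without mutant Thy1+ replicate 2, 338 without Thy1+ replicate 3, and 431, 359 and 349 without c-Kit+ replicates 1, 2 and 3. Mutant Thy1+ replicate 2 stood apart in its germ-cell RNA. The summed level of 25 pan-germ-cell genes was 4085 CPM in it, against 2418 and 2595 CPM in Thy1+ replicates 1 and 3 and 4180 to 4815 CPM in the mutant c-Kit+ libraries. When libraries were scaled to these germ-cell genes, the median log2 fold change of all genes moved up by 0.60 in mutants and 0.64 in controls, and 5155 genes were higher in mutant Thy1+ against 60 in c-Kit+. Changes towards c-Kit+ are therefore relative to the whole RNA of a library. On the germ-cell scale the lists below that keep c-Kit+ calls in mutants are those of Leydig cells (6), mast cells (5) and differentiation (1). The 1 differentiation gene is Kit, the antigen of the sort.

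Gene by gene, the mutant and control contrasts ran along each other. They share no library. Of 3567 control calls higher in Thy1+ that were tested in mutants, 2345 (65.7%) were called so in mutants (13.8% of the 16980 genes tested in both), and these made up 90.1% of the 2604 mutant calls tested in controls. On the c-Kit+ side 463 genes (2.73%) were called in both, 38.1% of the control and 54.2% of the mutant calls. With no call in controls, the mutant contrast called a further 257 genes towards Thy1+ and 392 towards c-Kit+. Calls in opposite directions were 2 genes (0.0118%). The median log2 fold change of the control Thy1+ calls was 1.34 in controls and 0.88 in mutants. For control c-Kit+ calls it was -0.72 and -0.54. These medians are read on genes that the control contrast chose, which raises its own values. The 463 genes were 803 without mutant Thy1+ replicate 2, 274 without Thy1+ replicate 1, 171 without Thy1+ replicate 3, and 250, 176 and 208 without mutant c-Kit+ replicates 1, 2 and 3. The control c-Kit+ calls were 2002 without control Thy1+ replicate 2 and 625 without control c-Kit+ replicate 2. Over all 16980 jointly tested genes the SD of the log2 fold change was 0.78 in mutants and 0.91 in controls.

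**Figure D1:**
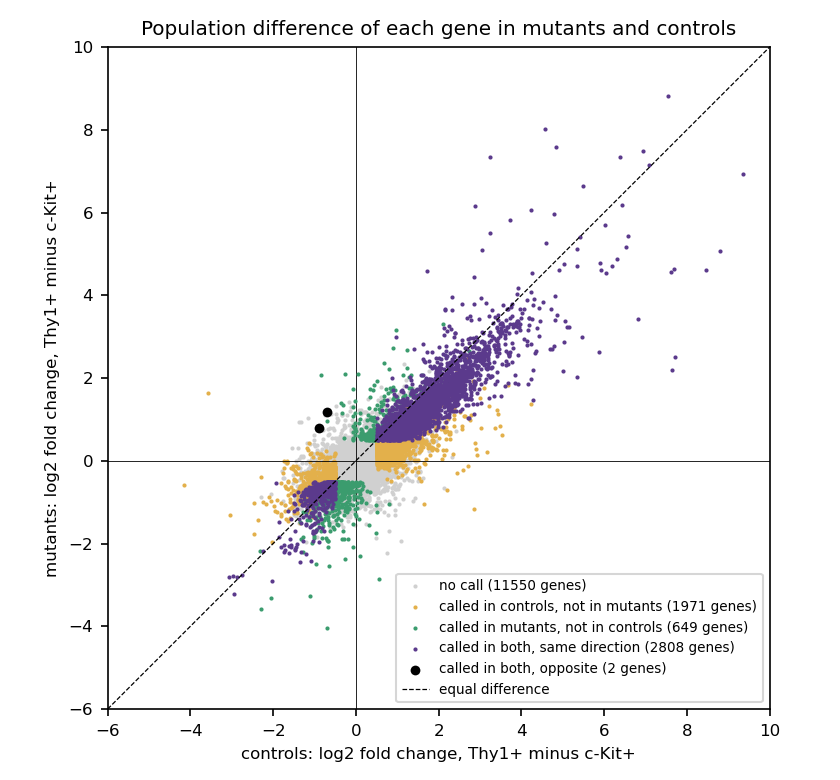
Each point is a gene tested in both genotypes, with the log2 fold change of Thy1+ minus c-Kit+ cells in controls on the x axis and in mutants on the y axis, coloured by where it was called. The 2808 genes called in the same direction in both run along the dashed line of equal difference, most of them below it on the Thy1+ side, and only Msh5 and Pbx3 were called in opposite directions.

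Whether any gene passed the test of the difference between the genotypes depended on the fit. In edgeR's interaction test over 18002 genes, without a block, the lowest adjusted p was 0.235, and 0 genes passed an adjusted p of 0.05. At an unadjusted p under 0.05 there were 1804 genes (10%), of which 1478 (8.21%) had a mutant minus control difference below 0 and 326 (1.81%) above 0. DESeq2 called 59 genes, 42 below 0 and 17 above, and edgeR called 1 without control c-Kit+ replicate 3. With the replicate number as a block over all 12 libraries edgeR called 446 genes (lowest adjusted p 0.0162), 422 below 0 and 24 above. Deviations of same-numbered libraries correlated at 0.297, 0.239 and 0.133 in controls and at 0.0211, 0.203 and 0.0621 in mutants. In neither genotype do the labels say that a number stands for the same pups. Whether libraries of a number were paired was therefore not settled. The unadjusted p of the fit without a block is printed with each difference below.

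Both parts of the GDNF receptor and other genes of the earliest spermatogonia were higher in mutant Thy1+ cells. Of the 31 tested genes of undifferentiated spermatogonia, 13 were called towards Thy1+ and 2 (Lin28b and Sox3) towards c-Kit+, beside 15.3% and 5.03% of all genes. The median log2 fold change of the list was 0.49, beside -0.03 over all genes. In controls 18 were called towards Thy1+ and 3 towards c-Kit+, with a median of 1.22 beside 0.03 over all genes. Leaving out 1 mutant library left 10 to 14 members higher in Thy1+, and 0 to 5 in c-Kit+ (5 without Thy1+ replicate 2, 0 without Thy1+ replicate 3 or any c-Kit+ library).

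Gfra1, the ligand-binding part of the receptor, was at 40.3, 41.0 and 39.4 CPM in mutant Thy1+ libraries and at 3.51, 3.04 and 4.86 CPM in the c-Kit+ ones. This was a log2 fold change of 3.45 ± 0.18 (SE, adjusted p = 1.53e-05, edgeR). Ret, the signalling part, was at 69.7, 82.7 and 75.1 CPM against 10.2, 11.7 and 13.5 CPM. The log2 fold change was 2.72 ± 0.13 (SE, adjusted p = 1.42e-05, edgeR). For both genes the lowest Thy1+ library lay several-fold above the highest c-Kit+ library. In controls the Thy1+ means were 74.6 CPM for Gfra1 and 149 CPM for Ret, while the c-Kit+ means were 4.18 and 10.9 CPM, close to those of the mutants. The log2 fold change of Ret was smaller in mutants by 1.09 (unadjusted p of the difference 0.00069, edgeR) and that of Gfra1 by 0.75 (unadjusted p 0.0189, edgeR).

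Nanos2, a repressor of differentiation, was a rare transcript at 1.28, 1.88 and 1.59 CPM in mutant Thy1+ and 0.236, 0.195 and 0.0868 CPM in mutant c-Kit+ libraries. Lhx1, a homeobox gene under GDNF, showed the same pattern with 5.89, 6.20 and 5.96 CPM against 0.649, 0.414 and 0.840 CPM. Tcl1, an activator of AKT signalling, was at 9.29, 10.7 and 6.87 CPM against 0.974, 1.24 and 1.19 CPM. The log2 fold changes of these 3 genes were 3.21, 3.29 and 3.02, and all were called. Id4, an inhibitor of bHLH factors, was called with 1.55 on that scale (2.65 in controls).

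Etv5, an ETS factor that GDNF induces, gave the second lowest interaction p among the genes named for a smaller difference in mutants. It was at 82.7, 75.5 and 96.0 CPM in mutant Thy1+ and at 44.1, 31.4 and 38.1 CPM in mutant c-Kit+ libraries, a log2 fold change of 1.20 ± 0.14 (SE, adjusted p = 0.000463, edgeR). The control means were 97.4 CPM for Thy1+ and 17.2 CPM for c-Kit+, a log2 fold change of 2.53. The difference between the genotypes was -1.34 (unadjusted p = 6.62e-05, adjusted p = 0.235, edgeR). All mutant c-Kit+ libraries lay above the control c-Kit+ mean while the mutant Thy1+ mean was 84.7 ± 10.4 CPM (SD, n = 3).

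Several regulators shared by undifferentiated and early differentiating cells were not called between the mutant populations. Zbtb16, also known as Plzf, was at 125, 165 and 144 CPM against 101, 115 and 102 CPM, with a log2 fold change of 0.49 just under the limit (adjusted p = 0.0153, edgeR). In controls it was called with 1.04 (unadjusted p of the difference 0.00329, edgeR). Without mutant Thy1+ replicate 1 or c-Kit+ replicate 2 it was called in mutants as well, with 0.60 and 0.55. Sall4, a stem-cell zinc finger factor, had a log2 fold change of -0.17, Lin28a, which blocks let-7 microRNAs, -0.02, and Pou5f1, the pluripotency factor Oct4, 0.46. Their mutant groups overlapped. On the germ-cell scale Sall4 was at 0.37 and Lin28a at 0.52, neither called, Zbtb16 and Pou5f1 were called with 1.07 and 0.99, and the median of the list was 1.07 with 18 members higher in Thy1+ and 0 in c-Kit+.

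Genes that answer the ERK pathway, the kinase cascade under growth factor receptors, stayed higher in mutant Thy1+ cells. Of 13 such genes 10 were called, beside 15.3% of all genes, with a median log2 fold change of 1.03 (1.76 in controls). Etv4, a partner of Etv5, was at 17.3, 18.2 and 16.6 CPM in mutant Thy1+ against 4.78, 4.43 and 4.83 CPM in the c-Kit+ ones. The feedback inhibitor Spry1 had a log2 fold change of 1.53 and Phlda1 of 2.26. Dusp4, an ERK phosphatase, was the 1 member called higher in mutant c-Kit+ cells, and there was none without Thy1+ replicate 1 or 3 or c-Kit+ replicate 1 or 3, nor on the germ-cell scale. Spry4, another feedback inhibitor, had a log2 fold change of 1.35 in mutants and 2.71 in controls (unadjusted p of the difference 0.0005, edgeR). Immediate early and heat shock genes, which also rise when tissue is handled, moved the same way in the same libraries. Of these 19 genes 16 were called higher in mutant Thy1+, beside 15.3% of all genes, Fos among them with 1.41 on the log2 scale. The summed level of the 19 was 8026 to 12640 CPM in Thy1+ against 4244 to 6152 CPM in c-Kit+ libraries. Without c-Kit+ replicate 2 the number called was 10. Their part in the result was not tested.

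**Figure D2:**
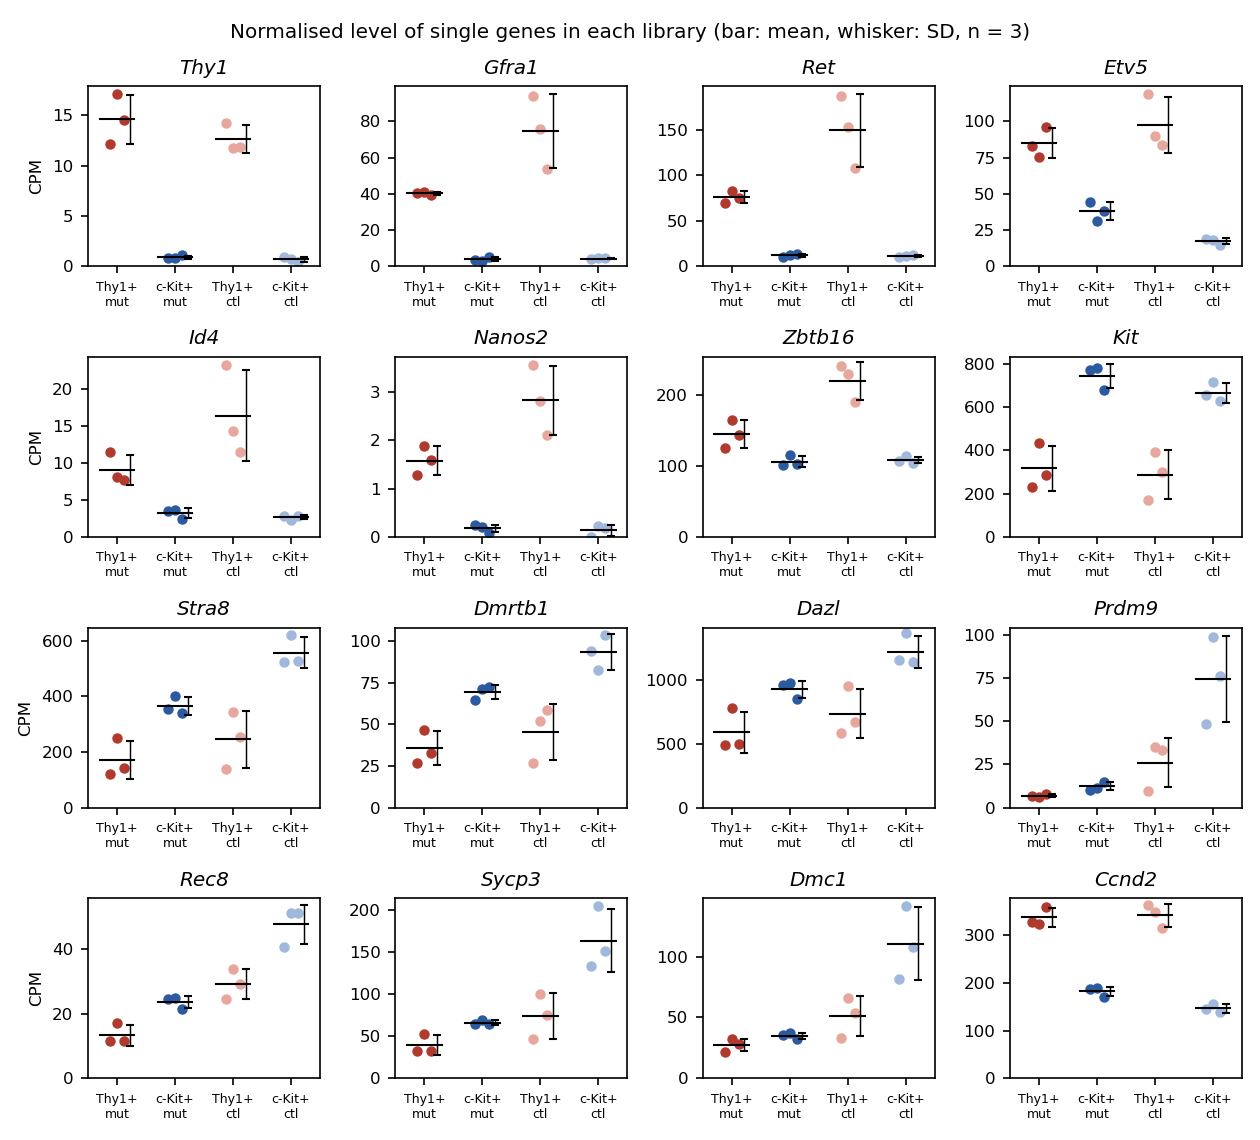
CPM of 16 genes in each of the 12 libraries, by group, with the mean as a bar and the SD as a whisker (n = 3), on linear axes that start at 0. Gfra1, Ret and Nanos2 kept a gap between mutant Thy1+ and c-Kit+ libraries below that of the controls, Kit and Stra8 ran the opposite way, and Prdm9, Rec8, Sycp3 and Dmc1 were low in all mutant libraries beside the control c-Kit+ libraries.

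Differentiation genes stood on the c-Kit+ side in mutants as they did in controls. Of 19 tested genes, 9 were called towards mutant c-Kit+ and 1, the cyclin Ccnd2, towards Thy1+, beside 5.03% and 15.3% of all genes. Kit, the antigen by which the c-Kit+ cells were sorted, is among the 9. The median log2 fold change of the list was -0.58 (12 and 1 called and a median of -0.75 in controls). Stra8, the retinoic acid target that licenses meiosis, was at 121, 248 and 141 CPM in mutant Thy1+ and 355, 401 and 339 CPM in mutant c-Kit+ libraries, a log2 fold change of -1.06 ± 0.24 (SE, adjusted p = 0.0135, edgeR). Dmrtb1 was at 27.0, 46.9 and 33.0 CPM against 64.8, 71.2 and 72.5 CPM, and its log2 fold change was -0.92 (-1.02 in controls). Both genes were higher in every c-Kit+ library. The interaction gave unadjusted p-values of 0.856 and 0.836 for these genes, which does not show that their differences were equal.

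The transcription factors Sohlh1 and Sohlh2, which act early in differentiation, were not called, with -0.46 and -0.51 on the log2 scale. Without mutant Thy1+ replicate 2 they were, with -0.71 and -0.73. Sohlh2 (adjusted p = 0.051, edgeR) was called by DESeq2 (adjusted p = 0.0197), edgeR's exact test, the replicate block, the joint fit of 12 libraries, DESeq2's size factors, library size alone and with no filter on counts. Ccnd2, a cyclin of the G1 phase, was at 329, 325 and 361 CPM in mutant Thy1+ against 187, 189 and 171 CPM in mutant c-Kit+ libraries. Its log2 fold change was 0.93 ± 0.08 (SE, adjusted p = 9.76e-05, edgeR). The number of differentiation genes higher in c-Kit+ was 18 without Thy1+ replicate 2, 5 without Thy1+ replicate 1, 2 without Thy1+ replicate 3, and 5, 3 and 3 without c-Kit+ replicates 1, 2 and 3. Stra8 lost its call without Thy1+ replicate 3 (adjusted p = 0.0639, edgeR). On the germ-cell scale the list's median was -0.05 and 1 gene was called in each direction. The 1 towards c-Kit+ was Kit (-0.67), the antigen of the sort, so its call is no separate check. Stra8 (-0.55) and Dmrtb1 (-0.39) were not called on that scale.

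Retinoic acid genes make, bind and break down the signal. Aldh1a3, a retinaldehyde dehydrogenase, was at 56.1, 44.5 and 68.4 CPM in mutant Thy1+ against 14.0, 9.62 and 11.6 CPM in mutant c-Kit+ libraries. Its relative Aldh1a1 ran the other way with 592, 416 and 584 CPM against 1690, 1158 and 1483 CPM. The log2 fold changes were 2.31 and -1.40. In all, 3 of 21 tested genes were higher in each population and 15 were not called, beside 15.3% (Thy1+) and 5.03% (c-Kit+) of all genes, so the Thy1+ count was near that of any genes. Without 1 library 2 or 3 were higher in Thy1+ and 1 to 4 in c-Kit+, the fewest (2 and 1) without c-Kit+ replicate 2 or 3. Without Thy1+ replicate 3 there were 2 and 2, and without c-Kit+ replicate 1 there were 3 and 2. Aldh1a1 was not called on the germ-cell scale (-0.75), where 0 genes of the list were higher in c-Kit+.

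Meiotic genes leaned to the c-Kit+ side in both genotypes. Of 41 genes for the meiotic chromosome axis, synapsis and recombination, 36 were called higher in c-Kit+ cells in controls and 13 in mutants, with medians of -0.93 and -0.45, beside 7.08% and 5.03% of all genes called that way. In mutants 38 of the 41 had a log2 fold change below 0. The mutant minus control difference was above 0 for 36 of 41. It reached an unadjusted p under 0.05 for 3 genes only (Dmc1, Majin and Msh5) and the lowest adjusted p in the list was 0.336 (edgeR). The mutant median was -0.73 without Thy1+ replicate 2 and -0.32 without Thy1+ replicate 1. The count of mutant calls rested on single libraries. It was 27 without Thy1+ replicate 2, 4 without Thy1+ replicate 1, 1 without Thy1+ replicate 3, and 4, 2 and 3 without c-Kit+ replicates 1, 2 and 3. On the germ-cell scale the median was 0.09 in mutants, with 0 genes higher in c-Kit+, and -0.34 in controls, with 3.

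To see whether the called genes share a sequence at their start, the promoters of all 13 were searched on both strands for CNCCTCAG, the motif of STRA8 and MEIOSIN, the factors that start the meiotic program. It was held by 3 of the 13 (Prdm9, Syce2 and Tex12), whose promoters are shown for that reason, and by 6 of the 23 other members with a window. Over the meiotic list 9 of 36 genes with a promoter window held it (25.0%), beside 10.9% of the 13092 genes tested in mutants that had a window and 9.12% of all 27025 genes with one. The motif was not particular to this list, since it was held by 7 of 15 immediate early and heat shock genes (46.7%), 23.5% of the matrix, 22.2% of the ERK and 4 of 20 pan-germ-cell genes with a window. The 300-base windows are those of RefSeq on GRCm38.p6, the patch level of the mm10 build to which the reads were aligned. The 3 promoters are given below from 250 bases before the start to 22 bases from the start on, 5′ to 3′ in the direction of the gene, with the motif in capitals. They lie at chr17:15564333-15564604 (minus strand), chr8:84872008-84872279 (plus strand) and chr9:50561247-50561518 (minus strand). A match is a description of these letters and not a site.
Prdm9: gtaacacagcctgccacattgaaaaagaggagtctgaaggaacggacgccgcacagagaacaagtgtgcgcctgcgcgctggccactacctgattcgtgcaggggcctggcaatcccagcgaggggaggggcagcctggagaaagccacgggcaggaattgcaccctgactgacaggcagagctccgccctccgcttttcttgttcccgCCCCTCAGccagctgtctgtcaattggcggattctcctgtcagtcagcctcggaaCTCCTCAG
Syce2: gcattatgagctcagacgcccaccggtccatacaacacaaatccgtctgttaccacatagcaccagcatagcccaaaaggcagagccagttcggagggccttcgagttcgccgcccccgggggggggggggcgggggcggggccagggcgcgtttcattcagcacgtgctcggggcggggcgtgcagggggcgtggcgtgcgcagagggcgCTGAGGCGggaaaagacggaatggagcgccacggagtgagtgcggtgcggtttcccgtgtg
Tex12: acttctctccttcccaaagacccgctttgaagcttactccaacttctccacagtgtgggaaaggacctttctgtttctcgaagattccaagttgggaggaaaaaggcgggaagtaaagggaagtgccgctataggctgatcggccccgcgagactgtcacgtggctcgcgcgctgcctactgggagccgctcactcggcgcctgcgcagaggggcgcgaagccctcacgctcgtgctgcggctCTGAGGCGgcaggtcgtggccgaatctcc

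Prdm9, the methyltransferase that marks recombination hotspots, holds the motif at 2 positions, both on the strand of the gene. It was at 6.49, 6.06 and 7.84 CPM in mutant Thy1+ and 10.5, 11.6 and 14.9 CPM in mutant c-Kit+ libraries. Its log2 fold change was -0.82 ± 0.18 (SE, adjusted p = 0.0125, edgeR), and every c-Kit+ library was above every Thy1+ library. In controls the means were 26.0 and 74.6 CPM, so that the mutant c-Kit+ level lay below even the control Thy1+ mean. With all 12 libraries in 1 fit the adjusted p was 0.112 (edgeR), and on the germ-cell scale the gene was not called (-0.21). Syce2 and Tex12, proteins of the central element of the synaptonemal complex, hold the motif once each on the opposite strand, with log2 fold changes of -0.62 and -0.58 in mutants and -1.03 and -0.91 in controls.

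Rec8, the meiotic cohesin, was at 11.4, 17.0 and 11.4 CPM in mutant Thy1+ against 24.5, 24.7 and 21.3 CPM in mutant c-Kit+ libraries, a log2 fold change of -0.78 (adjusted p = 0.0134, edgeR). In controls it was -0.68. Sycp3, of the chromosome axis, was at 32.6, 52.8 and 32.6 CPM against 64.1, 69.1 and 64.8 CPM, with a log2 fold change of -0.70 (-1.12 in controls). Rec8 lost its call without Thy1+ replicate 3 (adjusted p = 0.0586, edgeR) or c-Kit+ replicate 2 (0.0549), and Sycp3 without Thy1+ replicate 3 or any 1 of the c-Kit+ libraries (adjusted p from 0.0605 to 0.0979, edgeR). Neither was called on the germ-cell scale (-0.23 and -0.17). Sycp3 is among the genes that make this scale, so its value there is no separate check.

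The genes of double-strand breaks and strand exchange were among those with no call in mutants. Dmc1, the meiotic recombinase, was at 21.8, 32.2 and 28.0 CPM in mutant Thy1+ against 35.8, 36.9 and 32.4 CPM in mutant c-Kit+ libraries. These gave a log2 fold change of -0.31, beside -1.09 in controls (unadjusted p of the difference 0.0444, edgeR). Spo11, which cuts the DNA, had -0.27 and -0.99, and the cohesin Rad21l -0.30 and -1.21, with unadjusted p-values of the difference of 0.0843 and 0.0817. Stag3, Sycp1 and Hormad1, of the axis and the synaptonemal complex, were not called in mutants either, with -0.49, -0.49 and -0.65, but were without Thy1+ replicate 2 and with the replicate block. Hormad1 was also called by DESeq2 (adjusted p = 0.02), edgeR's exact test and by library size alone.

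Msh5, which stabilises crossover intermediates, was the exception in the list. It was at 10.0, 11.6 and 11.6 CPM in mutant Thy1+ and 6.88, 6.77 and 6.20 CPM in mutant c-Kit+ libraries, whereas the control means were 24.0 and 45.4 CPM. The log2 fold change was 0.78 in mutants and -0.90 in controls, and both were called. The control call was near the limit (adjusted p = 0.0419, edgeR) and the control groups overlapped. Control Thy1+ replicate 2 was at 28.5 CPM and control c-Kit+ replicate 1 at 27.8 CPM. The difference of 1.67 had an unadjusted p of 0.000614 (edgeR).

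**Figure D3:**
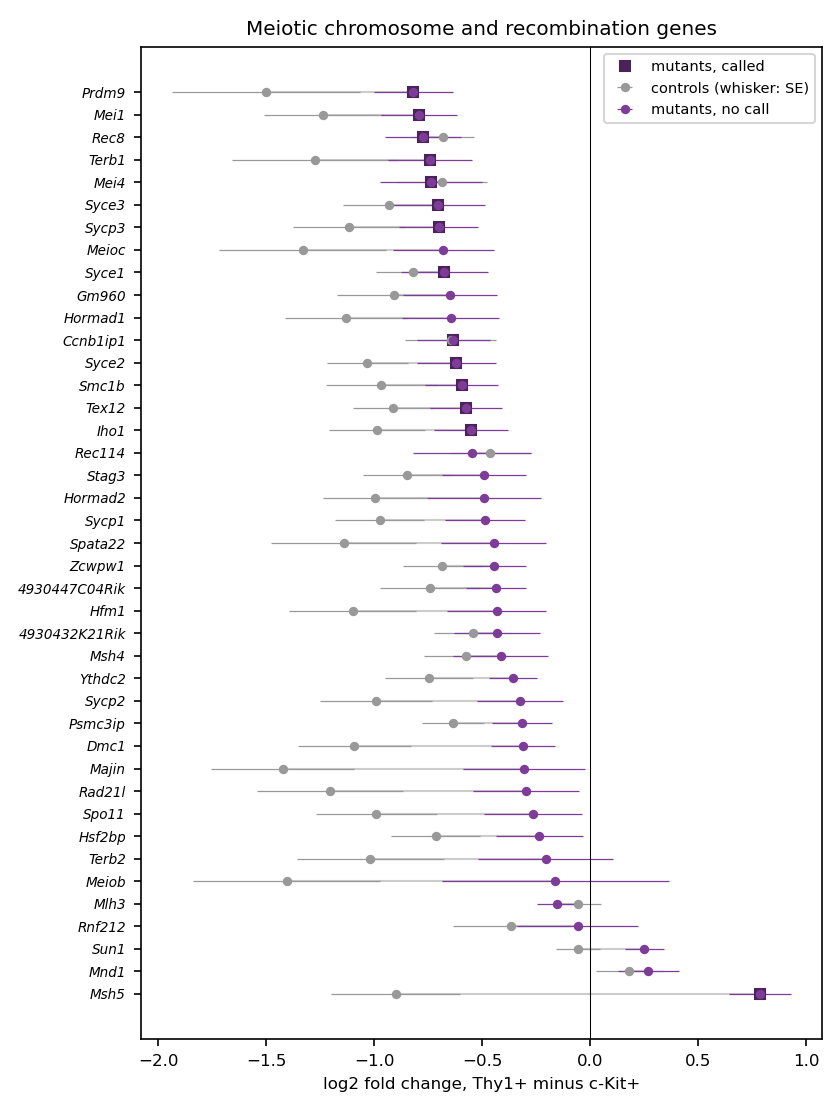
Log2 fold change (Thy1+ minus c-Kit+) of 41 meiotic chromosome and recombination genes in mutants (purple, squares where called) and controls (grey), with the SE as a whisker. Values to the left of 0 are higher in c-Kit+ cells. The mutant values have a median of -0.45 and the control values of -0.93, and Msh5 alone lies far to the right of 0.

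Of 25 pan-germ-cell genes, 6 were called higher in mutant c-Kit+ cells, beside 5.03% of all genes. The list's median log2 fold change was -0.48 (13 called and -0.51 in controls), and -0.74 without Thy1+ replicate 2. The number called was 21 without Thy1+ replicate 2, 2 without Thy1+ replicate 1, 0 without Thy1+ replicate 3, and 1, 0 and 0 without c-Kit+ replicates 1, 2 and 3. Dazl, an RNA-binding protein of all germ cells, was at 496, 780 and 502 CPM in mutant Thy1+ against 961, 979 and 853 CPM in mutant c-Kit+ libraries. Its log2 fold change was -0.61 and its call was lost without any 1 library other than Thy1+ replicate 2 (adjusted p from 0.0667 to 0.130, edgeR). On the germ-cell scale Dazl was not called (-0.067, adjusted p = 0.81, edgeR), and 0 genes of this list were higher in c-Kit+. That scale is made from the summed counts of this same list. Values of the list near 0 on it were therefore set in advance, and that of Dazl, a member, is no separate check. Ddx4, the germ-cell helicase whose promoter drives the Cre, had -0.46 and was not called, but was without Thy1+ replicate 2 and with the replicate block. Among 33 replication and mitosis genes, 3 were higher in Thy1+ (Ccnd2, Ccnd3 and Tk1) and 4 in c-Kit+ cells, beside 15.3% and 5.03% of all genes. The 4 became 11 without Thy1+ replicate 2 and 0 without any other library or on the germ-cell scale. The proliferation marker Mki67 was at 334, 462 and 361 CPM against 459, 474 and 434 CPM and was not called, with -0.20 (-0.51 in controls, called).

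Of 19 glycolytic genes 5 were called higher in mutant Thy1+ cells and 1 the other way, beside 15.3% and 5.03% of all genes, with a median log2 fold change of 0.12 (10, 0 and 0.68 in controls). Without mutant Thy1+ replicate 2 the Thy1+ count was 8 and the median 0.26, without Thy1+ replicate 1 the median was 0.05, and without c-Kit+ replicate 2 or 3 the count was 3, near the share of all genes. Eno2, an enolase, led with 11.1, 11.3 and 13.3 CPM against 3.22, 1.73 and 2.14 CPM. The glucose transporter Slc2a3 had 0.59 in mutants and 1.33 in controls (unadjusted p of the difference 0.0036, edgeR). Of 9 DNA methylation genes, 2 were called higher in mutant Thy1+ and 1 in mutant c-Kit+ cells, beside 15.3% and 5.03% of all genes. The demethylases Tet1 (1.42) and Tet2 (0.94) were the 2, and the methyltransferase Dnmt3b (-0.66) the 1. The other 6 were not called, and the list's median log2 fold change was -0.02 (0.22 in controls). Dnmt3b lost its call without Thy1+ replicate 3 or any 1 of the c-Kit+ libraries (adjusted p from 0.0599 to 0.104, edgeR), and on the germ-cell scale (-0.12, adjusted p = 0.666). Among 10 CHD remodelers Chd9 alone was called, with 0.78 on the log2 scale, beside 15.3% of all genes called towards Thy1+.

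**Figure D4:**
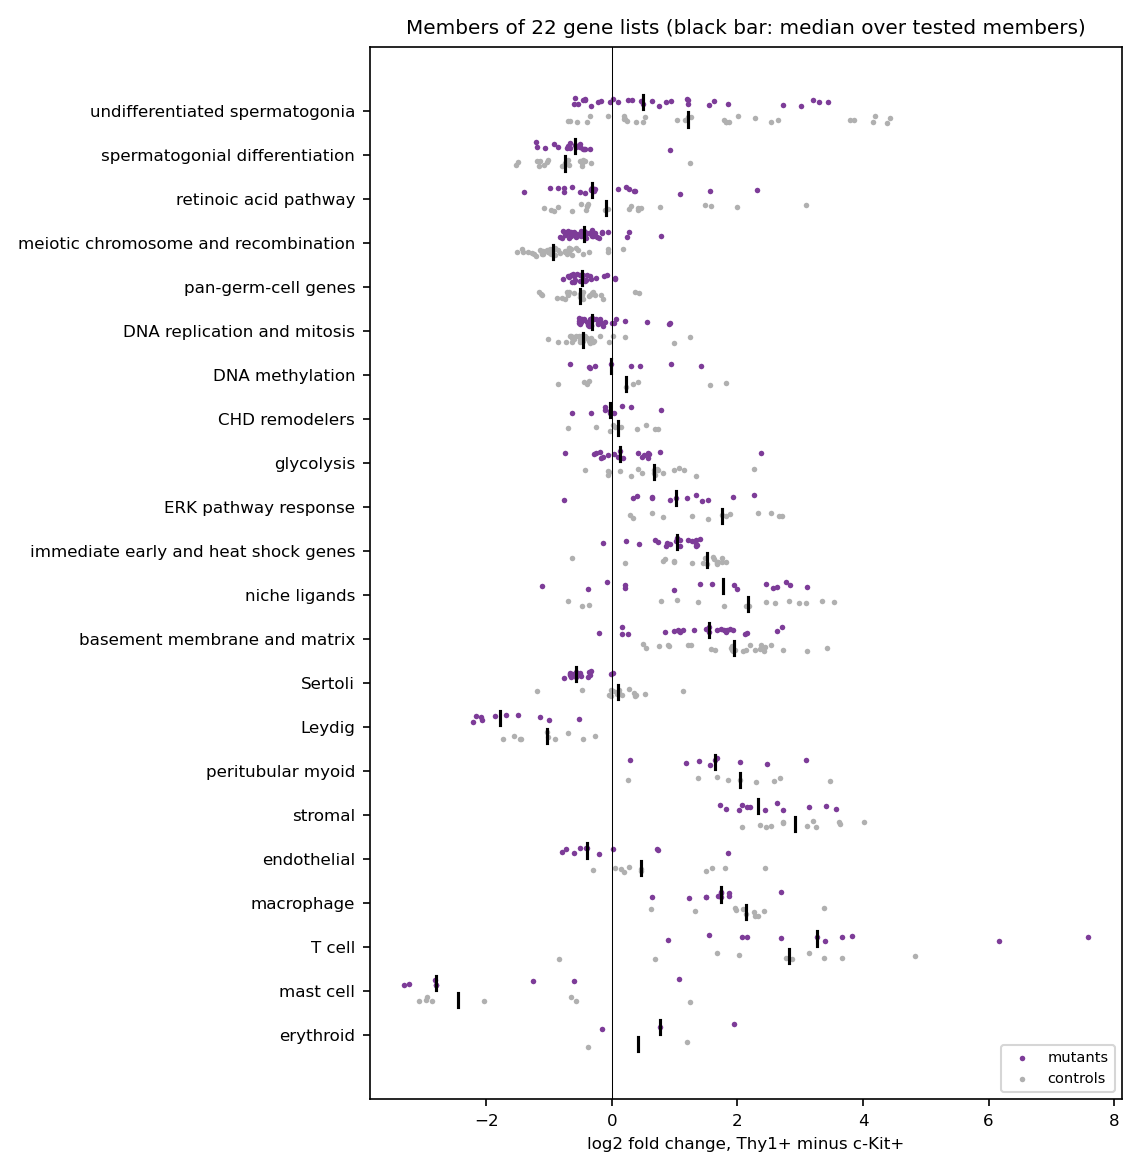
Log2 fold change (Thy1+ minus c-Kit+) of the tested members of 22 gene lists in mutants (purple) and controls (grey), with the median of each as a black bar. The mutant medians of the differentiation, meiotic and pan-germ-cell lists lie left of 0 and that of undifferentiated spermatogonia right of it, those of the stromal, matrix, macrophage and T cell lists lie right of it too, and those of the Leydig and mast cell lists lie farthest to the left.

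The 10 genes with the largest fold towards Thy1+, by a rule that asked for no overlap between libraries, were Cd3g, Mmrn1, Xcl1, Olfr558, Gzmc, a gene with ID 100862094, Ndufa4l2, Trpc6, Rgs5 and Map3k7cl. Cd3g, a chain of the T cell receptor complex, was at 3.31, 4.55 and 4.25 CPM in mutant Thy1+ libraries. The c-Kit+ libraries held 2 counts of it in all against 452 in Thy1+, a ratio of 222 with an exact 95% counting interval of 61.2 to 1840. The interval takes reads as independent, though both reads of a pair were counted, and leaves out the spread between libraries. It is therefore too narrow. Rgs5, a pericyte regulator of G proteins, was at 73.9, 52.3 and 63.2 CPM against 4.34, 2.34 and 0.811 CPM. Its exons overlap those of 100862094, so that their counts cannot be told apart. Gzmc, a granzyme of cytotoxic lymphocytes from a family of near-identical copies, had a log2 fold change of 4.89.

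Stromal markers marked the Thy1+ libraries of both genotypes. All 12 stromal genes were called higher in mutant Thy1+ cells, beside 15.3% of all genes. Their median log2 fold change was 2.32 (12 called and 2.91 in controls). So were 22 of 26 matrix genes, 8 of 9 peritubular myoid genes and 10 of 11 macrophage genes called higher in mutant Thy1+ cells. The stromal and matrix lists share Col1a1, Col1a2 and Col3a1, so their counts are not separate. The receptor Pdgfrb was at 131, 91.7 and 129 CPM in mutant Thy1+ against 11.7, 9.20 and 9.67 CPM in the c-Kit+ ones. The collagen gene Col1a1 was at 3260, 2344 and 3735 CPM against 597, 490 and 471 CPM. Des, the muscle filament desmin, had a log2 fold change of 3.09 and the macrophage receptor Mrc1 of 1.86. The summed stromal level was 12870 to 19770 CPM in mutant Thy1+ and 3393 to 4494 CPM in mutant c-Kit+ libraries, lowest in the Thy1+ group in replicate 2.

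Growth factors of the spermatogonial niche went with these markers. Of 16 ligand genes 11 were called higher in mutant Thy1+ cells, beside 15.3% of all genes. The list's median log2 fold change was 1.77 (13 called and 2.17 in controls). Igf1, an insulin-like growth factor, was at 795, 609 and 964 CPM against 111, 93.4 and 76.8 CPM. The chemokine Cxcl12 was at 447, 398 and 568 CPM against 79.8, 65.2 and 66.6 CPM. Gdnf itself, a Sertoli and myoid cell product, was the 1 ligand higher in mutant c-Kit+ cells, with -1.10. No ligand was called that way without Thy1+ replicate 3 or any 1 of the c-Kit+ libraries, nor on the germ-cell scale. The part of stromal cells in these values was not tested.

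Of 11 tested T cell genes all were called higher in mutant Thy1+ cells, beside 15.3% of all genes. The summed level of the list was low, at 28.2 to 33.1 CPM in Thy1+ and 5.11 to 7.38 CPM in c-Kit+ libraries. Without c-Kit+ replicate 2 the number called was 6, and without any other library 8 or 10. Thy1 is, as background, also a surface protein of T cells and fibroblasts. Cd3e, another chain of the receptor complex, was at 0.815, 1.99 and 1.30 CPM against 0.148, 0.219 and 0.637 CPM, with a log2 fold change of 2.08. In controls it was -0.84 and not called (unadjusted p of the difference 0.000796, edgeR). Its mutant call was lost without Thy1+ replicate 2 or 3 or c-Kit+ replicate 1 or 2 (adjusted p from 0.0582 to 0.113, edgeR). Ctsw, a cathepsin of lymphocytes, had 2.99 in mutants and 0.97 in controls (unadjusted p of the difference 0.000303, edgeR).

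The c-Kit+ libraries carried mast cell and Leydig cell genes. The 10 genes with the largest fold towards c-Kit+ were Mcpt4, Srp54b, Cma1, Tpsb2, Cpa3, Klhl14, Adgrg7, Hao2, Bpifb4 and Cyp17a1. Of 8 tested mast cell genes 6 were called higher in mutant c-Kit+ cells and 1, Srgn, in Thy1+, beside 5.03% and 15.3% of all genes. No mast cell gene was called towards Thy1+ without Thy1+ replicate 3 or c-Kit+ replicate 2 or 3. Scaled to germ-cell genes, 5 were higher in c-Kit+. The mast cell proteases are, in part, close copies of each other. Mcpt4 was at 14.1, 12.2 and 19.3 CPM in mutant c-Kit+ against 1.25, 1.78 and 1.69 CPM in mutant Thy1+ libraries, and the carboxypeptidase Cpa3 at 11.9, 10.2 and 14.2 CPM against 0.435, 2.13 and 2.53 CPM. Kit is, as background, the receptor that mast cells depend on. Srp54b, which has close paralogs, rested on 1 library, with 3.34, 22.7 and 1.68 CPM in c-Kit+ replicates 1, 2 and 3, and without c-Kit+ replicate 2 its log2 fold change of -2.85 was -0.97 (adjusted p = 0.133, edgeR). It was not called without any 1 of the Thy1+ libraries either.

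Leydig cells make testosterone. Of 10 tested genes of this cell type 9 were higher in mutant c-Kit+ cells, beside 5.03% of all genes, with a median log2 fold change of -1.77. In controls 5 were, beside 7.08% of all genes, with -1.03. Cyp17a1, an enzyme of androgen synthesis, was at 425, 314 and 653 CPM in mutant c-Kit+ and 73.2, 79.9 and 141 CPM in mutant Thy1+ libraries, a log2 fold change of -2.20 ± 0.31 (SE, adjusted p = 0.00128, edgeR). Hsd3b1, of the same pathway, had -2.16. The calls stood at 6 of 10 on the germ-cell scale and at 6 to 9 without 1 library, with 6 without c-Kit+ replicate 1 or 3. Their summed level was 1261 to 2185 CPM in mutant c-Kit+ and 694.6 to 1364 CPM in control c-Kit+ libraries. Summed Leydig and differentiation genes were both higher in the mutant c-Kit+ than in the mutant Thy1+ libraries. Among mutant c-Kit+ replicates 1 to 3 their order was opposite. The Leydig sums were 1748, 1261 and 2185 CPM and the differentiation sums 2850, 3033 and 2723 CPM. The part of Leydig cells in the differentiation genes was not tested.

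Sertoli cells nurse the germ cells within the tubule. Of 18 genes of this cell type 0 were called between the mutant populations, with a median log2 fold change of -0.56 (0.10 in controls) that was -1.26 without Thy1+ replicate 1 and -0.26 without Thy1+ replicate 3. Their summed level was 4473 CPM in mutant Thy1+ replicate 1 against 1797 and 1805 CPM in the other Thy1+ libraries, and 3885 to 4234 CPM in c-Kit+ libraries. Without Thy1+ replicate 1, 14 were called higher in c-Kit+. Of 11 endothelial genes 2, Cdh5 and Tek, were higher in Thy1+ and 9 were not called, which is near the 15.3% of all genes. The list's median log2 fold change was -0.39 in mutants (0.47 in controls), and 7 of the 11 genes lay below 0 in mutants. Tek lost its call without Thy1+ replicate 3 or c-Kit+ replicate 2 or 3 (adjusted p from 0.0565 to 0.0697, edgeR). Of the red cell genes, 0 of 3 tested were called, and 2 were without Thy1+ replicate 2.

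**Figure D5:**
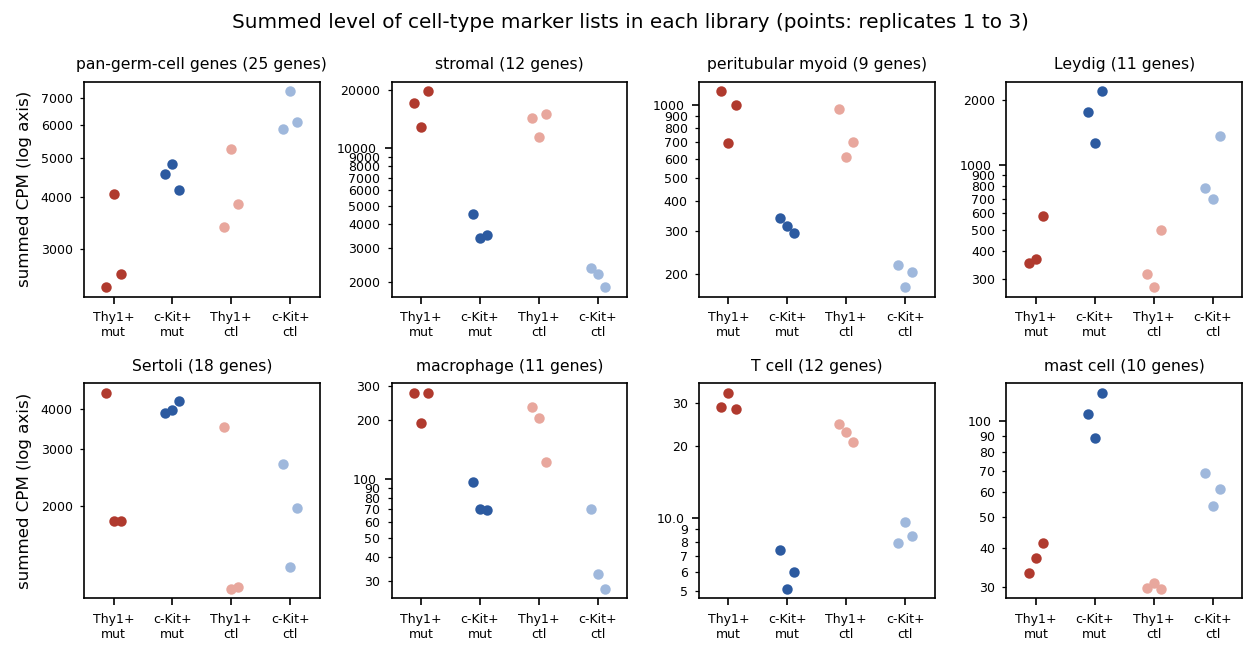
Summed CPM (log axes) of pan-germ-cell genes and 7 lists of somatic cell markers in each library, with replicates 1 to 3 from left to right in each group. Stromal, myoid, macrophage and T cell sums are higher in all 3 mutant Thy1+ than in all 3 mutant c-Kit+ libraries, and Leydig, mast cell and pan-germ-cell sums are lower.

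Outside the lists, the genes with the lowest interaction p were few and of mixed kind. Pbx3, a homeobox cofactor, was at 18.2, 14.2 and 19.7 CPM in mutant Thy1+ and 8.35, 7.96 and 7.27 CPM in mutant c-Kit+ libraries, with control means of 24.6 and 40.2 CPM. Its log2 fold change was 1.19 ± 0.16 (SE) in mutants and -0.69 in controls, and both were called. Pparg, a nuclear receptor of lipid metabolism, had 1.14 and -0.34. On the other side Fst, the activin-binding protein follistatin, was at 15.0, 16.8 and 14.5 CPM against 5.58, 5.67 and 5.44 CPM, a log2 fold change of 1.52 in mutants and 2.75 in controls (unadjusted p of the difference 3.4e-05, edgeR). Pygl, a glycogen phosphorylase, had 1.49 and 2.38, and Large2, a glycosyltransferase, 1.48 and 2.79. Eml2, a microtubule-associated protein, had 0.46 and 1.40 and was the 1 of these genes with no call in mutants, though it was called without Thy1+ replicate 2. None of these differences passed the adjusted threshold in edgeR without a block. All 10 genes named for their interaction, Etv5, Msh5, Cd3e and Ctsw among them, passed it in DESeq2 (adjusted p from 7.25e-07 to 0.0061) and in edgeR with the replicate block (adjusted p from 0.0162 to 0.0313).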

How the data were processed

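RNA was prepared from bead-sorted testis cells, selected for poly(A) and made into directional libraries. The authors trimmed reads with Trimmomatic 0.39, aligned them to mm10 with HISAT2 2.1.0 and deposited raw read counts per gene, summed over RefSeq exons by featureCounts (2.0.3 in the file header). The pair option was set without counting fragments, so both reads of a pair were counted, and no strand option was given: overlapping and antisense genes cannot be told apart. Besides Rgs5, exons of Gfra1, Etv5, Id4, Pou5f1, Ccnd2, Ccnd3, Sycp3, Tk1, Spry1, Cdh5 and Ndufa4l2 overlap those of another gene. Of 27179 gene IDs 25275 were given a symbol, and 0 sample columns were left unused.

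The counts were tested with edgeR 4.0.16 (quasi-likelihood F test, TMM, filterByExpr) in R 4.3.3, 3 libraries against 3 in each genotype and all 12 for the interaction, which was (mutant Thy1+ minus c-Kit+) minus (control Thy1+ minus c-Kit+). A call asked for a Benjamini-Hochberg adjusted p below 0.05 and a log2 fold change beyond 0.5 in either direction. CPM used TMM factors of the 12 libraries and can be compared between libraries, not between genes. The scripts were tested on simulated data. Alternatives were edgeR's exact test, DESeq2 1.42.0, other scalings and filters, 1 joint fit, replicate number as a block and leaving out each library.

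The libraries of a group differed by more than counting noise (chi-square per degree of freedom 10.8 to 76.7 between replicates), and none was merged. Deviations of same-numbered control libraries correlated at 0.297, 0.239 and 0.133, which passed the limit of 0.1 for pairing, and the blocked control counts were within 1.5 times those given. Among same-numbered mutant libraries only those of replicate 2, at 0.203, passed it.

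Named genes were Chd8, the antigens, 26 fixed germ-cell genes, the 10 largest differences each way, up to 3 called members of each list, opposite calls and the 5 lowest interaction p-values each way, with a mean log2 CPM of 1 or more asked of the largest differences and list members (mutant libraries) and of the interaction genes (all 12 libraries). Members named besides these (Spry4, Dusp4, Slc2a3, Gdnf, Syce2, Tex12, Lin28b, Sox3, Majin and Srgn) were chosen after their values were seen. The comparison, members and lists were chosen with earlier results of these data known. Some lists share members, so their counts are not independent. Ptprc is in the macrophage and T cell lists, and Sycp3 and Hormad1 are in the meiotic and pan-germ-cell lists. The differentiation list shares Ccnd2 with the replication list and Taf7l with the pan-germ-cell list. It shares Dmrt1 with the Sertoli list and Crabp1 with the retinoic acid list. Rarg is in the undifferentiated and retinoic acid lists. Etv5 and Egr2 are in the undifferentiated list and in the ERK and the immediate early list, respectively, and Ier3 is in both of the latter. Meiosin, Ankrd31, Gcna, Hbb-bt and Ahsp were not analysed here.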

Additional observations from a re-analysis of the deposited data

Results flagged for a closer look

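Pbx3, which encodes a homeobox cofactor, was flagged because its population difference ran in opposite directions in the genotypes. The log2 fold change of Thy1+ minus c-Kit+ cells was 1.19 in mutants, where 3 of 3 Thy1+ libraries lay above 3 of 3 c-Kit+ libraries, and -0.69 in controls. The interaction had an unadjusted p of 1.6e-05 and an adjusted p of 0.235 over 18002 genes (edgeR's quasi-likelihood test). It passed the adjusted threshold in DESeq2 (adjusted p = 7.25e-07) and in edgeR with the replicate block (adjusted p = 0.0162), and not in edgeR without it.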

How the results depend on the processing

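Under all alternatives run, genes higher in Thy1+ outnumbered those higher in c-Kit+ in both genotypes. By library size alone the c-Kit+ counts were 1390 in mutants, 1851 in controls and 823 in both. With no minimum fold they were 1534, 2357 and 997. Scaled to the pan-germ-cell genes, 5155 genes were higher in Thy1+ and 60 in c-Kit+ in mutants, 7973 and 54 in controls, and 4783 and 19 in both, since this scale moves every gene towards Thy1+. The interaction called 59 genes with DESeq2. Beyond the scale's own shift, the cause of these moves was not tested. Of 101 named log2 fold changes in mutants, 67 kept their direction and their side of the threshold under all alternatives, and 76 under all but the germ-cell scale.

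Leaving out 1 library, the counts higher in c-Kit+ ran from 338 to 1788 in mutants, from 625 to 2002 in controls and from 171 to 803 in both. The interaction called 0 to 1. The replicate number as a block gave 2702 and 1186 calls in mutants and 446 interaction calls. The deviations of same-numbered mutant libraries correlated at 0.0211, 0.203 and 0.0621, and not every mutant library correlated best with its own number, so these libraries were taken to share only a number. Where an arm had 2 libraries its spread was pooled with that of the other arm.

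On the germ-cell scale 12 named log2 fold changes turned from below to above 0 in mutants, with no call on either scale: Chd8 (0.51), Sall4 (0.37), Lin28a (0.52), Sohlh1 (0.079), Sohlh2 (0.029), Ddx4 (0.067), Rad21l (0.27), Stag3 (0.034), Sycp1 (0.043), Dmc1 (0.25), Spo11 (0.28) and Mki67 (0.37). Ddx4 is itself among the genes that make this scale, so its value there is no separate check. Lin28a ran from -0.22 to 0.15 without 1 library. The exact test, a joint fit of all libraries and a lower fold limit were not run for the interaction.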
